A study of Mus musculus with 9 samples.

Results

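Glutathione S-transferases are the enzymes that join the tripeptide glutathione to electrophilic compounds. The 10 members described here, chosen by name, are the alpha class genes Gsta1, Gsta2, Gsta3 and Gsta4, the mu class genes Gstm1, Gstm2, Gstm3 and Gstm4, the pi class gene Gstp1 and the theta class gene Gstt1. All 10 were found among the 24421 genes of the count tables, and all 10 passed the filter on low counts that left 14104 genes for testing. In OGT-deficient liver 7 members were higher than in WT liver, 1 was lower and 2 were not called. Of all tested genes 61.1% were called at an adjusted p under 0.05, 31.6% higher and 29.4% lower. The largest rises were those of Gsta1, Gsta2 and Gstm3, and the member that fell was Gstt1.

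The soluble transferases work as dimers, and each class is named by a Greek letter on the basis of sequence. Hepatocytes hold large amounts of them, because the liver receives drugs, plant compounds and lipid peroxidation products first. Several alpha and mu genes of mouse liver are known targets of NRF2, the transcription factor (gene Nfe2l2) that binds antioxidant response elements (ARE) when electrophiles release it from KEAP1. The conjugates that the transferases make leave the cell through ABC transporters and are trimmed and acetylated to mercapturates.

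The study compared whole liver of C57BL/6J mice that were 5 weeks old and had been fasted for 6 h. The first group held 5 Wildtype littermates (WT) and the second 4 OGT-deficient mice, 1 library of total RNA for each mouse. OGT is O-GlcNAc transferase, which modifies proteins of the nucleus and cytoplasm with single N-acetylglucosamine sugars. How OGT was deleted, and in which cells, is not given in the sources used here.

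Between 32337861 and 54130901 counts were assigned to genes in each library. Ogt was at 51.1 to 73.1 CPM (counts-per-million, with library totals scaled by the trimmed mean of M-values) in WT and at 14.3 to 20.6 CPM in OGT-deficient libraries, a log2 fold change of -1.86 (SE 0.14) with an adjusted p of 3.53e-07 in edgeR's quasi-likelihood test. Of the 14104 genes tested, 8614 (61.1%) were called at an adjusted p under 0.05, 4461 higher (31.6%) and 4153 lower (29.4%). Higher genes were 51.8% of the calls, and 62.5% with upper-quartile scaling, which moved the median of all log2 fold changes from 0.02 to 0.14. The first principal component carried 77.2% of the variance and separated the groups. Both sexes were used, according to the design text. The Y-linked genes Ddx3y, Kdm5d, Eif2s3y and Uty were present in all 9 libraries, at 7.28 CPM or more, and Xist did not exceed 1.13 CPM in any. By these genes all 9 libraries read as male, unlike the design text. The labels do not give the sex of each mouse. All 4 Y-linked genes were lower in OGT-deficient liver without overlap, with log2 fold changes from -0.80 to -0.42. Genes with a count above 0 numbered 15349 to 15987 in WT libraries and 16411 to 16855 in the others, and reads outside genes were 8.95 to 9.72% and 9.96 to 10.7% of uniquely aligned reads (both two-sided exact permutation tests, p = 0.0159, adjusted 0.0238 over 6 library measures).

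Reads that aligned to more than 1 place entered no gene count, so the sequence that members share bears on what their counts hold. Of all stretches of 50 bases in the principal transcript, 89.7% recurred in another gene for Gsta1, 64.2% for Gsta2, 62.3% for Gstp1, 28.8% for Gstm3, 23.2% for Gstm1 and 9.36% for Gstm2. For Gsta3, Gsta4, Gstm4 and Gstt1 none recurred. The alpha genes on chromosome 9 are the nearest to each other: the coding sequence of Gsta1 matched that of the gene model Gm3776 at 99.7% of positions and that of Gsta2 at 97.6%. The same 60 coding bases (469 to 528 from the start codon) are shown for the 4 genes of this group, with the 6 positions that vary in capitals, because only such positions let a read be placed.
Gsta1: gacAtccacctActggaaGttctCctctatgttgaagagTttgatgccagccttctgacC
Gm3776: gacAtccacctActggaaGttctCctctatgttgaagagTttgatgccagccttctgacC
Gm10639: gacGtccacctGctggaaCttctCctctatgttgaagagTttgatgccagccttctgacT
Gsta2: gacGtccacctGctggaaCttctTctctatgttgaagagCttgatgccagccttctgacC
Over this window Gsta1 and Gm3776 are identical. Their counts, and those of Gm10639 and Gsta2, are therefore uncertain as separate values.

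The mu genes are less alike. Over 60 coding bases of the 7 genes of the chromosome 3 cluster (327 to 386 in Gstm5, 318 to 377 in the others), 41 positions vary, again in capitals and listed in chromosomal order.
Gstm5: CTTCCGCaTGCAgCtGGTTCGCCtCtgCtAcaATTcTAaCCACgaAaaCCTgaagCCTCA
Gstm7: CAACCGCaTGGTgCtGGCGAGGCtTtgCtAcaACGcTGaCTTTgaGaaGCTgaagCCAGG
Gstm6: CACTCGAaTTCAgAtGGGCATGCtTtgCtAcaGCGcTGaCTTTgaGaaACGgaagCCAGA
Gstm3: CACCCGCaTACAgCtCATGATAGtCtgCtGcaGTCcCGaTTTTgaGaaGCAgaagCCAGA
Gstm2: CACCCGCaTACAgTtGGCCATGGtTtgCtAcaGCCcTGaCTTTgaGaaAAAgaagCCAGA
Gstm1: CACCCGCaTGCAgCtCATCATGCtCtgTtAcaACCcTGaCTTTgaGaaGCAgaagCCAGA
Gstm4: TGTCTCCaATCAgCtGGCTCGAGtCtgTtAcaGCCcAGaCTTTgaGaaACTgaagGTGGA
The closest mu members, Gstm1 and Gstm3, matched at 89.5% of coding positions, with a longest identical run of 112 bases. The pair of pi genes matched at 98.1%, and their first 60 coding bases differ at the 6 capital positions.
Gstp1: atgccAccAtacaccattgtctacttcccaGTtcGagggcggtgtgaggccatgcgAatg
Gstp2: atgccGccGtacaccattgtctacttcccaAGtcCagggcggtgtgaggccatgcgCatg

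**Figure D1:**
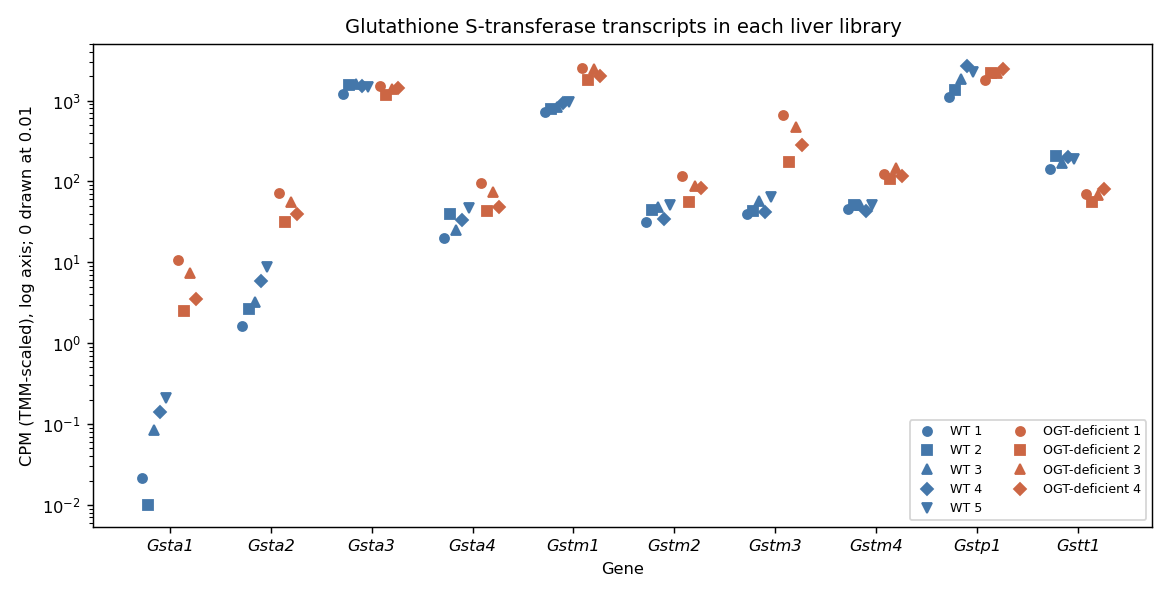
Level of each of the 10 members in each library, in CPM on a log axis (a value of 0 is drawn at 0.01). Blue symbols are the 5 WT libraries and orange symbols the 4 OGT-deficient libraries. For Gsta1, Gsta2, Gstm1, Gstm2, Gstm3 and Gstm4 every orange symbol lies above every blue one, for Gstt1 every one lies below, and for Gsta3, Gsta4 and Gstp1 they overlap.

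The plot of levels by library shows that the rises spanned both the alpha and the mu class. The 8 members called compare with 61.1% of all tested genes called, and the 7 higher ones with 31.6%. At least 2-fold higher were 6 of the 10 members, against 14.8% of tested genes, and at least 2-fold lower was 1, against 6.8%. The groups did not overlap for 7 members, against 51.3% of tested genes, and for 6 of these all OGT-deficient values lay above all WT values, against 26.2%. The median log2 fold change was 1.20 over the members and 0.02 over all tested genes.

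Gsta1 and Gsta2, alpha enzymes known for their induction by electrophiles, were at low levels in WT liver. Gsta1 had 1, 0, 3, 4 and 7 counts in WT libraries 1 to 5, that is 0.0214, 0, 0.0842, 0.139 and 0.209 CPM. The count of 0 in WT 2 allows up to 0.0554 CPM on the unscaled library size (3 counts, counting error only). In OGT-deficient libraries 1 to 4 Gsta1 was at 10.5, 2.52, 7.35 and 3.48 CPM. Every OGT-deficient library thus lay above every WT library, with replicates 1 and 3 the highest. The log2 fold change was 6.18 (SE 0.61), with an adjusted p of 3.19e-06 in edgeR, and without WT 5 it was 6.79.

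Gsta2 showed the same separation at a higher level. It was at 1.64, 2.65, 3.25, 5.90 and 8.76 CPM in the WT libraries. In the OGT-deficient libraries it was at 72.8, 31.7, 55.1 and 39.5 CPM. The lowest OGT-deficient value was thus well above the highest WT value, and the means differed 11.2-fold (4.44 ± 2.88, SD, n = 5, against 49.8 ± 18.2, SD, n = 4). Its log2 fold change was 3.52 (SE 0.40), with an adjusted p of 9.9e-06 in edgeR. With the counts of Gsta1 and Gsta2 summed before the test, the log2 fold change was 3.65, with an adjusted p of 9.18e-06 in edgeR.

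Gsta4, the alpha enzyme best known for conjugating 4-hydroxynonenal from oxidised lipids, was higher by a smaller margin. It was at 20.04, 39.2, 25.0, 33.0 and 46.6 CPM in WT and at 96.0, 42.5, 74.5 and 48.3 CPM in OGT-deficient libraries. The groups overlapped, since OGT-deficient replicate 2 lay below WT 5. Its log2 fold change was 0.998 (SE 0.26), with an adjusted p of 0.00529 in edgeR.

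Gsta3, the alpha enzyme with high activity towards activated aflatoxin in mice, was the alpha gene with the highest level, and it was not called. WT libraries held 1210, 1551, 1590, 1495 and 1464 CPM. OGT-deficient libraries held 1498, 1177, 1409 and 1440 CPM, inside or just below the WT range. The log2 fold change was -0.08 (SE 0.11), with an adjusted p of 0.528 in edgeR, and 2 SE on either side of it reached from -0.30 to 0.13. With upper-quartile scaling its sign turned (0.04). Gsta3 lies alone on chromosome 1 (GRCm38 21240589 to 21265661, plus strand), away from the other alpha genes.

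The 250 bases before the start site, from RefSeq (GRCm38.p6), are shown for the alpha genes with the largest rises and for the one that was not called, with motif matches in capitals.
Gsta1, chr9:78230419-78230668, plus strand: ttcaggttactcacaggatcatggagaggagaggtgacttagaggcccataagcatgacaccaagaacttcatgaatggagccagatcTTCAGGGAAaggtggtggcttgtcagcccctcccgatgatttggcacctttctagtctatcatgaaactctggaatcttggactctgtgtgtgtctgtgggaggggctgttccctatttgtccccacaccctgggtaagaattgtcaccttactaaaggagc
Gsta2, chr9:78347146-78347395, minus strand: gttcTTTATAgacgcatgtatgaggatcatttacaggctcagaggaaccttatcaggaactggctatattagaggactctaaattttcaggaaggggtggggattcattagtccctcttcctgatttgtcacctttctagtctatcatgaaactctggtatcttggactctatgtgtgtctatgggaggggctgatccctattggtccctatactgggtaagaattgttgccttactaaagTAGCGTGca
Gsta3, chr1:21240335-21240584, plus strand: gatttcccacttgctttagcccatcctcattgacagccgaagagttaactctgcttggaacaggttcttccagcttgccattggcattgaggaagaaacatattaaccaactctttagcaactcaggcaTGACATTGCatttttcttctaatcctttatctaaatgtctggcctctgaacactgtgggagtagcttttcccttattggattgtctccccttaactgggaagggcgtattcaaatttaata
Gsta1 and Gsta2 matched at 70.5% of these positions, and Gsta1 and Gm3776 at 89.7%. RefSeq windows were matched for 9 of the 10 members, and Gsta4 was not searched.

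Both strands of these windows were searched for 5 motifs: the ARE core TGACNNNGC, AP-1 TGANTCA, the xenobiotic response element TNGCGTG, STAT5 TTCNNNGAA and the TATA box TATAAA. The ARE core, which can overlap an AP-1 match, is present in 10.2% of 32851 windows of the same length in the RefSeq table, AP-1 in 6.75%, the xenobiotic element in 4.1%, STAT5 in 7.02% and TATA in 12.4%. Among these 9 members, the ARE core matched only in Gsta3 (TGACATTGC, starting 121 bases before the start site). Gsta1 held a STAT5 match (TTCAGGGAA, 162 bases before it), which Gm3776 and Gm10639 also hold. Gsta2 held a xenobiotic element (TAGCGTG, 9 bases before) and a TATA match 246 bases before. Gstp1 held an AP-1 match (TGAGTCA, 74 bases before), and a second start site of Gstm1 a TATA match 30 bases before it. Gstm2, Gstm3, Gstm4 and Gstt1 had no match in these windows. Elements farther upstream were not searched. The windows of Gsta2 and Gstt1 lie inside the annotated genes, which on the minus strand begin at 78355788 and 75798584. The bases before those outermost starts were therefore not searched.

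The 4 mu members all rose. Gstm1, the main mu enzyme of mouse liver, was at 716, 775, 829, 932 and 960.0 CPM in WT libraries and at 2555, 1814, 2490 and 2009 CPM in OGT-deficient libraries. Its groups were far apart, and OGT-deficient replicates 1 and 3 were the highest. The means differed 2.63-fold, and the log2 fold change was 1.40 (SE 0.13), with an adjusted p of 1.82e-06 in edgeR.

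Gstm3, a mu enzyme encoded beside Gstm2, rose the most of the class. It was at 39.1, 42.7, 56.6, 42.4 and 64.0 CPM in WT libraries. In OGT-deficient libraries it was at 670.7, 174, 476 and 278 CPM. OGT-deficient replicates 1 and 3 held the high values and replicate 2 the low one, so that the values spread more in this group (coefficient of variation 55.0%) than in WT (22.0%). In edgeR its log2 fold change was 3.03 (SE 0.32), with an adjusted p of 5.19e-06, and it ranged from 2.65 to 3.27 with each library left out.

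Gstm2 and Gstm4, the remaining mu members, rose as well. Gstm2 was at 31.1, 44.6, 48.0, 33.9 and 51.7 CPM in WT and at 118, 55.7, 88.0 and 82.1 CPM in OGT-deficient libraries. The gap between the groups was narrow, since replicate 2 lay just above WT 5, and the log2 fold change was 1.04 (SE 0.20), with an adjusted p of 0.000583 in edgeR. Gstm4 was at 45.6, 51.4, 51.1, 42.5 and 50.6 CPM in WT and at 124, 106, 148 and 117 CPM in OGT-deficient libraries. Its replicates were the tightest of all 10 members in WT (coefficient of variation 8.25%), and its log2 fold change was 1.36 (SE 0.10), with an adjusted p of 3.49e-07 in edgeR. With the counts of the 4 mu members summed, the log2 fold change was 1.53, with an adjusted p of 2.44e-06 in edgeR.

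Gstp1, the pi enzyme that is abundant in male mouse liver, was not called. It was at 1108, 1344, 1873, 2680 and 2244 CPM in WT and at 1771, 2183, 2211 and 2469 CPM in OGT-deficient libraries. The OGT-deficient values all lay inside the WT range, which was wide. The log2 fold change was 0.22 (SE 0.22), with an adjusted p of 0.397 in edgeR, and 2 SE on either side reached from -0.22 to 0.66.

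The WT libraries differed in a technical measure in the same order as in Gstp1. Alignments to more than 1 place, per assigned read, numbered 0.314, 0.442, 0.624, 1.02 and 0.955 in WT 1 to 5. The rising order of both was WT 1, 2, 3, 5 and 4. Among the members only Gstp1 held this exact order. Gsta2 and Gstm1 came near it, rising steadily from WT 1 to WT 5, with WT 5 above WT 4. Gsta1 did the same but for WT 2. The levels of Gsta3, Gsta4, Gstm2, Gstm3, Gstm4 and Gstt1 followed neither order. In OGT-deficient libraries the measure was 0.205 to 0.224, below every WT library (two-sided exact permutation test, p = 0.0159, which is the minimum for this design, and 0.0238 adjusted over 6 measures). Its part in the values of Gstp1, Gsta1 and Gsta2, the members with the most shared sequence, was not tested.

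Gstt1, the theta enzyme known for its action on small halogenated compounds, fell. It was at 143, 209, 167, 201 and 190.3 CPM in WT libraries. It was at 70.5, 56.0, 68.0 and 81.0 CPM in OGT-deficient libraries. Each OGT-deficient value was below each WT value, and the mean fell from 182 ± 26.9 (SD, n = 5) to 68.9 ± 10.3 (SD, n = 4). The log2 fold change was -1.40 (SE 0.13), with an adjusted p of 2e-06 in edgeR. In bulk liver, fewer cells of a type and less RNA per cell cannot be told apart, for this gene as for the others.

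**Figure D2:**
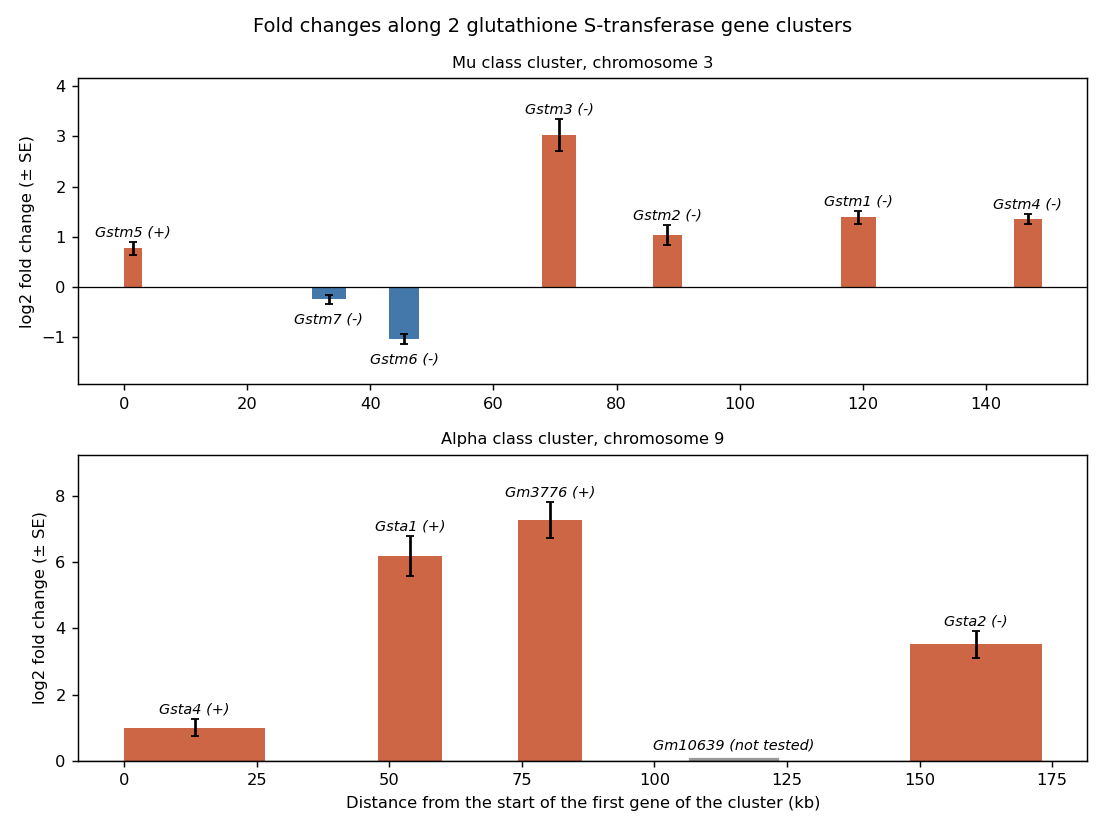
Log2 fold change (OGT-deficient against WT, error bars ± SE) of each gene of the mu cluster on chromosome 3 and of the alpha cluster on chromosome 9, drawn at its distance in kb from the start of the first gene, with the strand in brackets. Orange bars are higher, blue bars are lower, and grey marks a gene that was not tested. In the mu cluster Gstm7 (-0.24) and Gstm6 (-1.02) point down beside Gstm3 (3.03), and in the alpha cluster all tested genes point up.

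The members of a class did not all move alike along the chromosome. The mu cluster on chromosome 3 (GRCm38 107895821 to 108044894) holds 7 listed genes, and the map of both clusters gives their fold changes in order. Gstm5, first and on the plus strand, was higher (0.77, SE 0.13, adjusted p 0.000224 in edgeR). Gstm7 was lower by a small amount (-0.24, SE 0.08, adjusted p 0.0229 in edgeR), a call that was lost with upper-quartile scaling (-0.12, adjusted p 0.226), with the replicate number as a block (-0.25, adjusted p 0.0714) and without WT 3 (-0.22, adjusted p 0.0539). Gstm6 was lower, from 106 to 134 CPM in WT to 51.0 to 66.9 CPM in OGT-deficient libraries (-1.02, SE 0.10, adjusted p 2.95e-06 in edgeR). The next 4 genes on the minus strand, Gstm3, Gstm2, Gstm1 and Gstm4, were all higher. Gstm6 and Gstm3, whose directions were opposite, shared a coding run of 125 identical bases and 84.6% of coding positions.

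The alpha cluster on chromosome 9 (GRCm38 78182774 to 78355788) holds Gsta4, Gsta1, Gm3776, Gm10639 and Gsta2. The 4 tested genes were higher. Gm3776, a gene model, had 3 counts in all over the WT libraries and 533 over the OGT-deficient libraries, a ratio per assigned read of 240.5 with a 95% counting interval of 81.9 to 1170. Its log2 fold change was 7.28 (SE 0.54), with an adjusted p of 3.37e-07 in edgeR, and it was 8.17 without WT 2. Gm10639 had 0 counts in WT and 56 in OGT-deficient libraries, a ratio per assigned read of 25.3 if the WT group is set to 3 counts. With the 0 counts as observed, the lower limit of the 95% counting interval of the ratio was 19.9, and the gene was not tested. The theta cluster on chromosome 10 holds Gstt3, Gstt1, Gstt4 and Gstt2. Its 3 tested genes were lower, Gstt3 at -1.18 (SE 0.15, adjusted p 1.98e-05 in edgeR) and Gstt2 at -2.02 (SE 0.34, adjusted p 0.000232 in edgeR), and Gstt4 had no count in any library. On chromosome 19 Gstp2, beside Gstp1, was higher (2.49, SE 0.25, adjusted p 3.83e-06 in edgeR) at 12.8 to 20.1 CPM against 1.54 to 3.99 CPM in WT. It shared 64.3% of its 50-base stretches with Gstp1.

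Levels were compared between genes as CPM per kb of principal transcript. The full length was used, with no correction for sequence shared with other genes, from which reads may be lost. That share was 89.7% for Gsta1, 64.2% for Gsta2 and 62.3% for Gstp1, so their levels may be understated against the other members. In WT liver Gstp1 had the highest level of the 10 members, 2253 ± 782 CPM per kb (SD, n = 5), followed by Gsta3 (1003 ± 102), Gstm1 (654 ± 80.0) and Gstt1 (176 ± 25.9). The ranges of these 4 did not overlap. Gstm2 (39.4), Gstm3 (37.3), Gsta4 (33.5) and Gstm4 (28.3) came next, with overlapping ranges, and Gsta2 (5.10) and Gsta1 (0.104) last. In OGT-deficient liver (n = 4) the order of the first 3 levels was Gstp1 (2629 ± 351), Gstm1 (1720 ± 281) and Gsta3 (948 ± 96.8). Gstm1 lay above Gsta3 in each of these 4 libraries and below it in each of the 5 WT libraries. Gstm3 moved to the fourth place (305 ± 168), and the ranges of the first 4 did not overlap. Gstm2 (80.8), Gstm4 (72.6), Gsta4 (66.9), Gstt1 (66.4) and Gsta2 (57.2) then followed within each other's ranges, with Gsta1 (6.83) last.

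**Figure D3:**
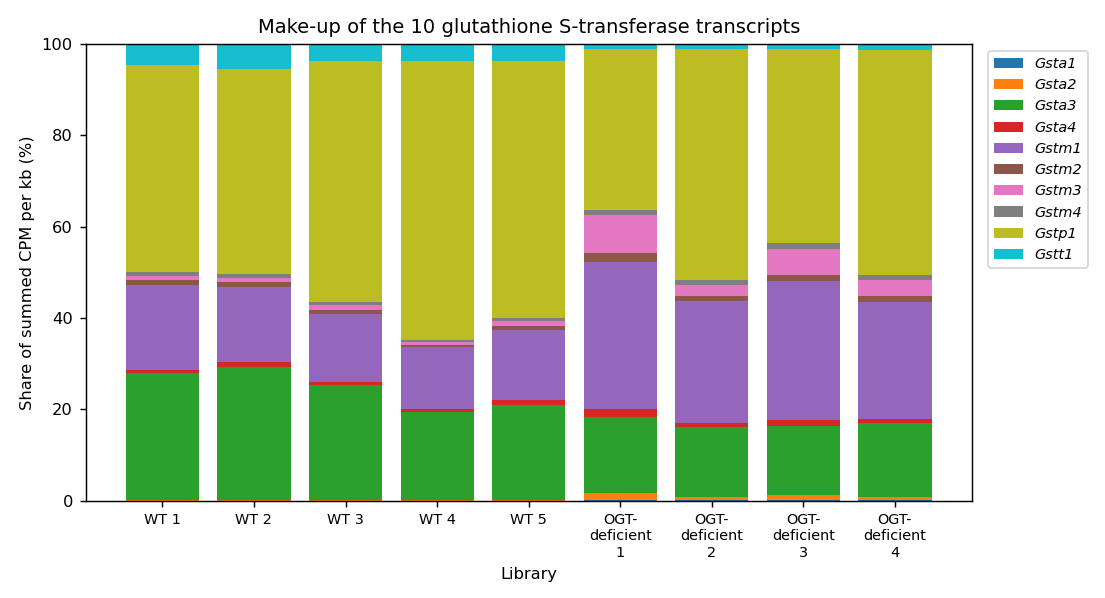
Share of each member in the summed CPM per kb of the 10 members, in percent, for each of the 9 libraries (1 stacked bar for each library, colours by gene). The share of Gstm1 is 13.6 to 18.6% in the WT bars and 25.6 to 32.4% in the others, and that of Gstt1 is 3.63 to 5.52% and 1.03 to 1.28%.

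The summed level of the 10 members was 4229 ± 937 CPM per kb in WT (SD, n = 5) and 5953 ± 475 in OGT-deficient liver (SD, n = 4), with overlapping ranges (2982 to 5337 and 5259 to 6338). Mu members made up 15.2 to 21.5% of it in WT and 31.5 to 43.7% in OGT-deficient libraries. The theta member fell from a mean share of 4.26% to 1.11%, without overlap. Alpha members made up 19.98 to 30.3% and 16.9 to 19.96%, so that the lowest WT share and the highest OGT-deficient share nearly met. The pi member, at 44.8 to 61.2% and 35.2 to 50.6%, overlapped. These shares are a description and were not tested, and the limit from sequence shared with other genes holds for them too.

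**Figure D4:**
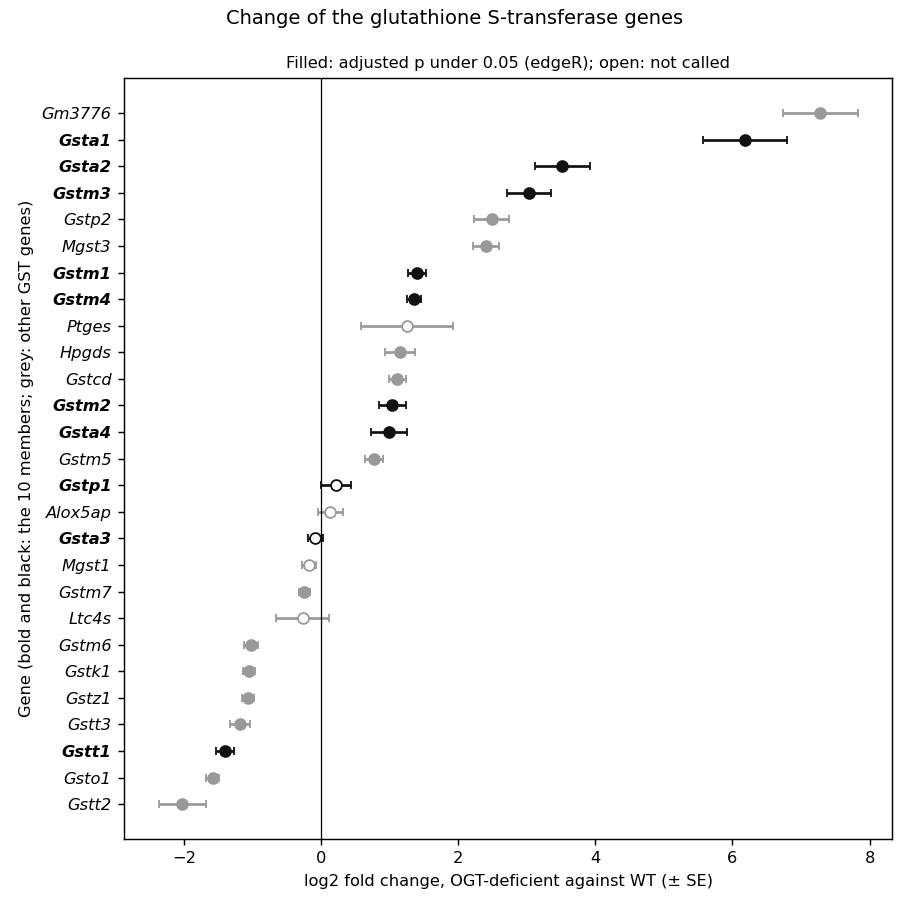
Log2 fold change of the 27 tested genes of the soluble and membrane lists (OGT-deficient against WT, bars ± SE), in order of size. The 10 members are in black and bold, the other genes in grey, and filled points passed an adjusted p of 0.05 in edgeR. The called members other than Gstt1 lie to the right of 0, and Gsto1, Gstz1, Gstk1 and the theta genes to the left.

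Other soluble transferases were called in both directions. Of 18 further genes listed, 15 have a row in the tables and 12 were tested. Of these, 5 were higher and 7 lower, against 31.6% and 29.4% of all tested genes. Their median log2 fold change was -0.63. The plot of fold changes in order of size includes all of the tested ones. Gsto1, an omega enzyme that reduces dehydroascorbate, fell (-1.58, SE 0.09, adjusted p 6.1e-08 in edgeR). Its mean was 109 ± 10.3 CPM (SD, n = 5) in WT and 36.4 ± 3.21 CPM (SD, n = 4) in OGT-deficient libraries. Gstz1, the zeta enzyme that acts as maleylacetoacetate isomerase in tyrosine breakdown, fell from 542 to 683 CPM to 266 to 310.2 CPM (-1.06, SE 0.09, adjusted p 1.07e-06 in edgeR). Gstk1, the kappa enzyme of mitochondria and peroxisomes, fell from 87.9 to 103 CPM to 40.7 to 51.1 CPM (-1.05, SE 0.09, adjusted p 9.95e-07 in edgeR). None of these 3 overlapped between the groups, which held for 51.3% of all tested genes.

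Of the other genes that rose, Hpgds, the haematopoietic prostaglandin D synthase, was higher at a low level, 1.88 to 3.86 CPM against 0.984 to 1.51 CPM (1.15, SE 0.23, adjusted p 0.000732 in edgeR). Gstcd, named for its transferase-like domain, was higher at 7.79 to 8.66 CPM against 3.13 to 4.54 CPM (1.11, SE 0.13, adjusted p 1.07e-05 in edgeR). Gsto2 had 2, 0, 4 and 0 counts in OGT-deficient libraries against 5 to 10 in WT and was not tested. Over all soluble transferases 12 of 22 tested were higher and 8 lower, against 31.6% and 29.4% of all tested genes.

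The membrane transferases belong to a separate protein family. Of 6 genes of that family listed, 5 were tested and 1 was called, against 61.1% of all tested genes. Mgst3, which also reduces lipid peroxides, was higher, at 36.7, 20.1, 29.5 and 22.4 CPM in OGT-deficient libraries against 3.87 to 6.70 CPM in WT (2.41, SE 0.19, adjusted p 5.76e-07 in edgeR). Mgst1, the abundant microsomal enzyme of liver, was at 2028 to 2675 CPM in WT and 1936 to 2205 CPM in OGT-deficient libraries (-0.17, SE 0.11, adjusted p 0.170 in edgeR). Alox5ap (0.14, adjusted p 0.538 in edgeR) and Ltc4s (-0.27, adjusted p 0.565 in edgeR), partners of leukotriene synthesis, and the prostaglandin E synthase Ptges (1.25, adjusted p 0.123 in edgeR) were not called. Mgst2 was below the filter, at 0 to 7 counts for each library.

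Genes for the supply of glutathione were called in both directions. Of 15 tested genes of glutathione synthesis and recycling, 5 were higher and 6 lower, near the 31.6% and 29.4% of all tested genes. Their median log2 fold change was 0.10. Gclc, the catalytic subunit of the rate-limiting glutamate-cysteine ligase, was higher (0.72, SE 0.14, adjusted p 0.00058 in edgeR), and Gclm, its modifier subunit, was lower (-0.37, SE 0.09, adjusted p 0.00344 in edgeR). Gss, glutathione synthetase, was higher (0.62, SE 0.10, adjusted p 0.000186 in edgeR), as was Gsr, the reductase that recycles oxidised glutathione, at 99.5 to 127 CPM against 58.4 to 66.4 CPM (0.86, SE 0.09, adjusted p 4.34e-06 in edgeR). Slc7a11, the cystine carrier, rose from 0 to 0.0854 CPM to 0.294 to 2.04 CPM (4.79, SE 0.79, adjusted p 0.000204 in edgeR). Ahcy, which releases homocysteine for cysteine synthesis, fell from 2224 to 2705 CPM to 996 to 1197 CPM (-1.16, SE 0.10, adjusted p 1.15e-06 in edgeR).

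Genes that act on the conjugates were mostly lower. Of 14 tested genes of the mercapturate pathway, 3 were higher and 9 lower, against 31.6% and 29.4% of all tested genes. Their median log2 fold change was -0.46. Acy1, an aminoacylase, fell from 40.9 to 44.6 CPM to 12.2 to 13.7 CPM (-1.70, SE 0.07, adjusted p 6.21e-09 in edgeR). Nat8, whose product acetylates cysteine conjugates, fell from 1.58 to 6.55 CPM to 0.0979 to 0.443 CPM (-4.08, SE 0.49, adjusted p 1.48e-05 in edgeR). Ggt6 (-1.80, adjusted p 1.09e-06 in edgeR) and Ccbl1, a cysteine conjugate beta-lyase (-1.53, adjusted p 1.81e-06 in edgeR), fell as well. The 3 that rose, Ggt1 (2.85, adjusted p 0.000308 in edgeR), Ggt7 (1.40, adjusted p 0.00285 in edgeR) and Dpep1 (1.30, adjusted p 0.0012 in edgeR), did not exceed 1.75 CPM in any library. Ggt1 encodes the gamma-glutamyl transferase that opens the pathway and Dpep1 a dipeptidase of its next step. Of 7 exporters, 2 were higher, Abcc5 (0.90, adjusted p 0.000136 in edgeR) and Abcc1 (1.08, adjusted p 0.000397 in edgeR), and none was lower. The canalicular exporter Abcc2 (-0.27, adjusted p 0.0746 in edgeR) and the basolateral Abcc3 (-0.38, adjusted p 0.0606 in edgeR) were not called.

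Of 20 regulators of transferase genes, 1 was higher and 12 lower, against 31.6% and 29.4% of all tested genes. Their median log2 fold change was -0.36. The one that rose was Nfe2l2, at 56.0 to 73.6 CPM against 45.6 to 59.6 CPM with overlapping groups (0.27, SE 0.10, adjusted p 0.0283 in edgeR). Keap1, whose product restrains NRF2, was not called (-0.12, adjusted p 0.247 in edgeR). Nr1i3, the nuclear receptor CAR that responds to drugs, fell from 95.2 to 139 CPM to 8.69 to 20.4 CPM (-2.90, SE 0.23, adjusted p 5.55e-07 in edgeR). Ghr, the growth hormone receptor (-0.88, adjusted p 2.21e-05 in edgeR), and Rxra, the nuclear receptor that pairs with CAR (-0.61, adjusted p 0.000949 in edgeR), fell.

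NRF2 targets outside the family were more often higher than lower. Of 27 tested, 16 were higher and 4 lower, with a median of 0.58, against 31.6% and 29.4% of all tested genes. The list holds Gclc, Gclm, Gsr and Slc7a11 as well. Srxn1, sulfiredoxin, rose from 39.3 to 46.8 CPM to 191 to 332 CPM (2.61, SE 0.14, adjusted p 3.58e-08 in edgeR). Cbr3, a carbonyl reductase, rose from 0.417 to 0.897 CPM to 9.52 to 36.5 CPM (5.02, SE 0.43, adjusted p 1.02e-06 in edgeR). Pgd, of the pentose phosphate pathway (1.73, adjusted p 2.67e-07 in edgeR), and Ugdh, which makes UDP-glucuronate (2.001, adjusted p 1.54e-06 in edgeR), rose too. As a classical NRF2 target Nqo1 was also higher (2.33, adjusted p 8.44e-06 in edgeR), named here after its value was seen.

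Transferase levels of mouse liver are known to differ between the sexes, so 2 lists of such genes were read. Of 15 male-biased genes 2 were higher and 8 lower, and of 10 tested female-biased genes 2 were higher and 3 lower. Over all tested genes 31.6% were higher and 29.4% lower. In the male-biased list Hsd3b5 (-1.72, adjusted p 0.000239 in edgeR) and Ugt2b1 (-1.56, adjusted p 1.06e-05 in edgeR) fell, while Mup20 (1.81, adjusted p 0.0023 in edgeR) rose.

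Markers of cholangiocytes, stellate cells and hepatocytes moved with the groups, while most endothelial and lymphocyte markers were not called. Over all tested genes 31.6% were higher and 29.4% lower. Of 14 tested cholangiocyte markers, 13 were higher, with a median log2 fold change of 3.33. The summed level of the list was 59.4 to 96.0 CPM in WT and 202 to 360.1 CPM in OGT-deficient libraries. Krt19 rose from 0.763 to 1.41 CPM to 4.26 to 15.7 CPM, and Cftr was at 0 to 0.0854 CPM in WT and 0.882 to 1.47 CPM in OGT-deficient libraries. Hepatocyte markers were lower in 10 of 13 and higher in none, with a summed level of 119400 to 147100 CPM in WT and 61050 to 81610 CPM in OGT-deficient libraries. Stellate and myofibroblast markers were higher in 14 of 15 (249 to 516 CPM summed, against 1059 to 1432) and macrophage markers in 8 of 15 (578 to 834 CPM, against 593 to 1011). Endothelial markers were higher in 1 and lower in 3 of 12, lymphocyte markers higher in 1 and lower in 2 of 12, neutrophil markers higher in 2 of 5 and erythroid markers higher in 1 and lower in 1 of 3. The part of these cells in the changes of the transferases was not tested.

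OGT-deficient 2 was the lowest of the 4 for all 7 higher members, and OGT-deficient 1 was the highest for 6 of them. The 13 higher cholangiocyte markers were lowest in OGT-deficient 2 for 12 genes and highest in OGT-deficient 1 for 11. The 16 higher NRF2 targets were lowest in OGT-deficient 2 for 11 and highest in OGT-deficient 3 for 9. The first principal component of all tested genes also placed OGT-deficient 1 (78.58) farthest from WT and OGT-deficient 2 (62.65) nearest. These extremes were thus not particular to the lists named here, and a link between the lists was not tested. In WT the orders of members and cholangiocyte markers went apart: WT 1 was the lowest of the 5 for 5 of the 7 members and the highest for 7 of the 13 markers, and WT 5 was the highest for 6 members and for no marker.

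For each member, the tested genes with the most similar pattern were found by the root mean square difference of gene-centred log2 CPM over the 9 libraries, where 0 is identical. Most of this measure is the difference between the groups, so a gene with a like fold change ranks high. The nearest gene to Gsta1 was Krt20 (0.70), and to Gsta2 Flrt3 (0.38). For Gstm3 it was Gm19619 (0.34), followed by Ccdc136 (0.35) and Hkdc1 (0.35). Gstm1 was nearest to Rnd2 (0.15), Atad2 (0.16) and Slc39a10 (0.16), with Gstm4 in the ninth place (0.17). Gstm4 was nearest to Rfc4 (0.08) and Rnd2 (0.11), Gstm2 to Ccdc68 (0.16) and Gsta4 to Cib3 (0.21), with Gstm2 in the tenth place (0.29). Gstt1 lay closest to Tdo2 (0.09), Cyp27a1 (0.10) and Ddt (0.12), Gsta3 to Cltb (0.07) and Gstp1 to Cyp4a12a (0.22). Among the members, only Gsta4 and Gstm1 had another member within their 10 nearest genes.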

How the data were processed

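Total RNA of 9 livers was sequenced. Per the submitters' processing notes, TopHat2 2.1.0, HTSeq 0.9.1 and the mouse build mm10 (GRCm38) were used. The authors deposited a whole-number read count for each gene symbol and library, not normalized, followed by 5 summary lines, which were left out of all totals and tests. Reads outside genes were 8.95 to 9.72% of uniquely aligned reads in WT and 9.96 to 10.7% in OGT-deficient libraries. The sources used here give no kit, strand setting or annotation release, so reads of overlapping genes on opposite strands cannot be told apart. The numbers of mice and libraries in each group are equal in the design text, so each library was taken as 1 mouse.

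Counts were fitted in R 4.3.3 with edgeR 4.0.16 (filterByExpr, TMM scaling, quasi-likelihood F test on group, Benjamini-Hochberg over all tested genes, threshold 0.05). CPM values use TMM-scaled library sizes, and fold changes are those of the edgeR fit at its default setting. A prior count of 2 was used only for log2 CPM (principal components, correlations of same-numbered libraries and nearest patterns). The same steps were run on simulated data in which far fewer genes changed than were called here. That run therefore cannot check the scaling or the calls under changes as wide as these. Alternatives were DESeq2 size factors, upper-quartile factors, no filter, CPM of at least 1 in 4 libraries, DESeq2 1.42.0, limma voom (3.58.1), a replicate block, leaving out the 30 most abundant genes, leaving out each library, and summed paralogs. Within groups, all 16 pairs of libraries differed beyond sampling noise (chi-square per degree of freedom 23.9 to 135.0).

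Transcripts and coordinates (1-based) come from GENCODE mouse release 21 (GRCm38), upstream windows from RefSeq. The 10 members and the other gene lists were chosen with earlier results of these data known. Named are all members, the other listed transferases, from each further list the 4 genes with the smallest p and any exceptions of 3 or fewer to its main direction, and for each member the 3 nearest patterns (a selection of these is printed, and some genes that the rule takes are not reported here). Gsta5, Gsta13 and Gstp3 had no row under those symbols.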

Additional observations from a re-analysis of the deposited data

Results flagged for a closer look

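Gstm5 in WT 2, at 7.876 CPM, stood apart from the other 4 WT libraries, of which the nearest was at 5.931 CPM. The gap was 0.808 of the range of the group, above the critical value for 5 samples. Of 54 groups examined, each a tested gene of the soluble and membrane lists in 1 genotype, 1 was marked in this way, where chance alone marks about 1 in 20. The OGT-deficient values of Gstm5, 9.66 to 11.3 CPM, lay above all 5 WT values, and without WT 2 the log2 fold change was 0.88.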

How the results depend on the processing

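The counts of 7 higher and 1 lower member were the same under every alternative but summed paralogs, which merges members and gives no such count. In that setting both summed units were higher (3.65 and 1.53), as given with their results. Over the other settings the number of genes called in the whole table ranged from 7869 (replicate block) to 9201 (DESeq2), against 8614. Leaving out each library in turn gave 7960 to 8472 calls. For the 10 members, 175 of 176 recomputed fold changes kept their direction and their side of the threshold. The exception was Gsta3 with upper-quartile factors (0.0417, adjusted p 0.764). For the other genes of the soluble and membrane lists 280 of 287 did so. Ltc4s changed sign with the replicate block (0.0156, adjusted p 0.973), Gstm7 lost its call in 3 settings given with its result, and Ptges gained one with limma voom (2.12, adjusted p 0.0294), with the replicate block (2.14, adjusted p 0.0428) and without WT 5 (2.07, adjusted p 0.0161). The causes were not tested.

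The shared replicate numbers did not pair the libraries: deviations of same-numbered libraries correlated at 0.05, -0.10, 0.02 and 0.10, and WT 1 and WT 2 correlated best with OGT-deficient 3. With the replicate number as a block, the members called were 7 higher and 1 lower. Adjusted p-values of Gsta4 ranged from 0.00224 to 0.0245 over all settings and those of Gstp1 from 0.0701 to 0.71. Gsta1, Gm3776, Gm10639, Gsto2, Mgst2 and Ptges had few or no counts in at least 1 group, which limits the precision of their ratios. Shared sequence limits what Gsta1, Gsta2, Gm3776, Gstp1 and Gstp2 can say as separate genes.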
